A study of Mus musculus with 6 samples.

Results

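A set of 10 genes of the matrix metalloproteinase (MMP) and TIMP (tissue inhibitor of metalloproteinases) family was followed in cultured mouse dendritic cells, namely Mmp2, Mmp12, Mmp13, Mmp14, Mmp19, Mmp25, Mmp27, Timp1, Timp2 and Timp3. They were taken by gene name, 10 of the 54532 genes in the deposited table. The set was selected on the measured rise of Mmp27 with DB2313, so all values of the comparison of DB2313 with control are given for these genes as a description, and no test of it is drawn from them. There were 3 libraries of dendritic cells labelled as control and 3 libraries of dendritic cells treated with DB2313. The study describes DB2313 as an inhibitor of Spi1 (PU.1), a transcription factor of myeloid cells. The labels name the cells only as dendritic cells kept in serum-containing medium, while the study's methods describe RNA-seq of macrophages or CD8T cells. Strain, age, dose and duration of treatment are not in the labels. The treated columns of the table carry the name of Spi1 instead of DB2313, and every direction below rests on reading them as the DB2313 libraries.

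MMPs are zinc-dependent endopeptidases that cut collagens, elastin and other proteins of the extracellular matrix, as well as cytokines and their receptors. Most are secreted as inactive proenzymes, and a few are anchored in the plasma membrane. TIMPs are secreted proteins that bind the active site of MMPs and block it. In myeloid cells the family is known for letting cells cross basement membranes and, in atherosclerotic plaques, for the breakdown of the fibrous cap.

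The 10 genes split into groups that moved in opposite directions. The 3 members that lie in the MMP cluster of chromosome 9 (Mmp12, Mmp13 and Mmp27) were higher with DB2313, by about 1 to 2 on the log2 scale. Both membrane-anchored members (Mmp14 and Mmp25) and the secreted Mmp19 were lower. Mmp2, Timp2 and Timp3 were not called, with overlapping libraries, and Timp1 was lower in all DB2313 libraries without being called. A gene was called when its adjusted p was under 0.05 in edgeR's quasi-likelihood test over the 14174 genes that passed the filter on low counts. All 10 members passed this filter. Of them, 3 were called higher, where 4.66% of all tested genes were, and 3 were called lower, where 5.94% were. For 7 of the 10 members, the range of the control libraries in CPM (read counts relative to the library total, scaled by TMM) was apart from that of the DB2313 libraries, as it was for 27.4% of all tested genes. The rule used this contrast, so nothing is read from these shares. The median log2 fold change was -0.063 over the members and 8.2e-04 over all tested genes. In bulk RNA, fewer cells that express a gene and less RNA per cell cannot be told apart.

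**Figure D1:**
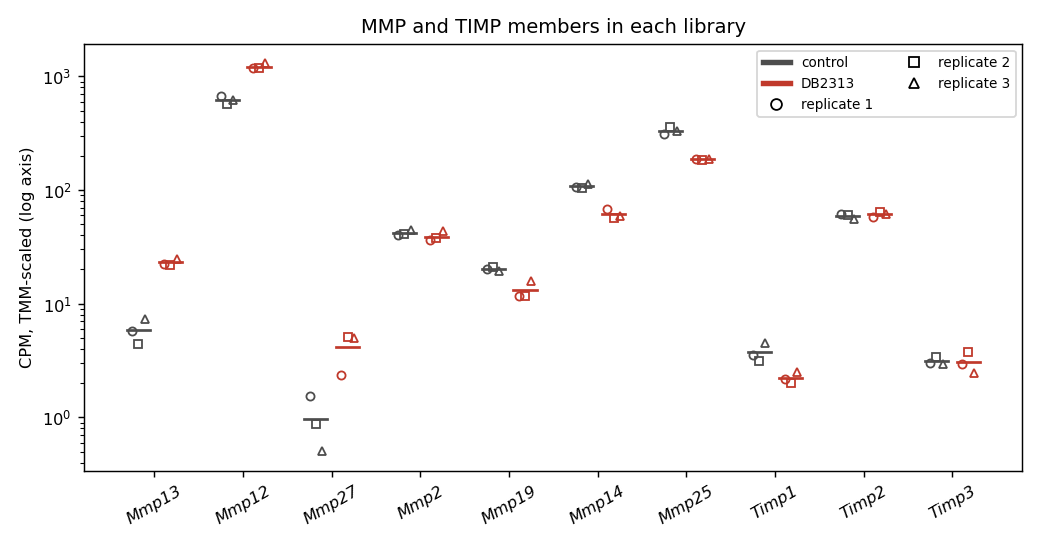
CPM (TMM-scaled, log axis) of the 10 members in each of the 3 control and 3 DB2313 libraries, with symbols for the replicates and a bar at each group mean. The DB2313 libraries lie above all control libraries for Mmp13, Mmp12 and Mmp27, below them for Mmp19, Mmp14, Mmp25 and Timp1, and among them for Mmp2, Timp2 and Timp3.

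Total counts were 16146743 to 19764677 per library. Replicates differed by more than sampling noise, with a chi-square per degree of freedom of 5.01 to 5.54 between control libraries and 7.97 to 19.4 between DB2313 libraries, where replicates 1 and 3 were the most distant pair. Of the 10 dendritic cell markers, Itgax, Flt3, Zbtb46, Cd74 and the class II genes were well detected, and Cd209a was at or near 0. Markers of macrophages and neutrophils were detected too. The mast cell and basophil markers were uneven. Mcpt8 was at 571 to 725 CPM, while Cma1 had 12 to 37 counts and Tpsb2 0 to 3 counts per library.

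The promoters of the 3 members of the cluster are shown first, since these genes rose together and lie in 1 cluster on the plus strand of chromosome 9. They were taken from RefSeq (GRCm38.p6), from 250 bases before to 50 bases after each annotated start, and are printed 5′ to 3′. Capitals mark matches to either of the motifs searched on both strands, the AP-1 motif TGANTCA, which reads the same on both strands, and the PU.1-type motif GAGGAA, which reads TTCCTC on the opposite strand. Matches of the motifs overlapped in 0 cases. Mmp12 has 2 annotated starts.

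Mmp27, chr9:7571146-7571445, plus strand: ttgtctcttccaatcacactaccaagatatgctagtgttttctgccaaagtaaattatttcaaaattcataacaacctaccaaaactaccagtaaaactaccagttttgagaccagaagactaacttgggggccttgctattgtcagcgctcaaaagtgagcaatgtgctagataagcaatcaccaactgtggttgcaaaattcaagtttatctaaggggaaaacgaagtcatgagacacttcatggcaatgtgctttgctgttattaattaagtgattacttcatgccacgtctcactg
Mmp13, chr9:7272264-7272563, plus strand: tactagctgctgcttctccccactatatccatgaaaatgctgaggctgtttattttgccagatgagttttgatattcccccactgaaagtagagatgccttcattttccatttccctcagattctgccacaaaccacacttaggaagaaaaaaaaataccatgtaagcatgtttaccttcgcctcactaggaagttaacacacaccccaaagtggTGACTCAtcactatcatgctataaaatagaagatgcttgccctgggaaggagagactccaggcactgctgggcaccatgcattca
Mmp12, upstream start, chr9:7344147-7344446, plus strand: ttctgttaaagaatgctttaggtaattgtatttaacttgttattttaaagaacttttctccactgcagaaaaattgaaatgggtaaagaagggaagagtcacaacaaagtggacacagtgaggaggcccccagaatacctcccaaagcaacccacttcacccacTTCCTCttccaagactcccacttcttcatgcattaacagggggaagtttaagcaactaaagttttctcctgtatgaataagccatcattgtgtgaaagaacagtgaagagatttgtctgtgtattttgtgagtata
Mmp12, downstream start, chr9:7347124-7347423, plus strand: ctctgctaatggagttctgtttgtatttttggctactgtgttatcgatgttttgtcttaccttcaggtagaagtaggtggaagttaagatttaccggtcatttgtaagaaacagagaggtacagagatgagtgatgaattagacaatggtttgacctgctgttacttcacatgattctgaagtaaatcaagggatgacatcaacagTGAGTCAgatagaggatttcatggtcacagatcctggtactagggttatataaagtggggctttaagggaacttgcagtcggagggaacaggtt

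The AP-1 motif began 35 bases before the start of Mmp13 and 44 bases before the downstream start of Mmp12. It was in 2 of the 9 promoters found for 8 members, while 7.81% of 32851 mouse promoters of this length held it. The PU.1-type motif was in 2 of the 9, that of Mmp25 at 13 bases before the start and that of the upstream start of Mmp12, while 28.3% of all promoters held it. The window of Mmp27 held neither motif. Mmp2 and Mmp19 were not matched in the promoter table. A match of letters is a description of the window and not a measured binding site.

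Mmp12, the macrophage elastase, was the member with the highest level per length. It had 10897, 9035 and 9899 counts in control replicates 1 to 3 and 19538, 23362 and 21616 counts in DB2313 replicates 1 to 3. All DB2313 libraries lay above all control libraries. Mean levels were 619 ± 51.6 CPM without DB2313 and 1219 ± 69.6 CPM with it (SD, n = 3 each), and the log2 fold change was 0.98 ± 0.08 (SE). The gene (ENSMUSG00000049723) lies at chr9:7344381-7369499 (GRCm38, plus strand). Its 3′ part overlaps Mmp1b on the opposite strand, which had 0 counts in every library. Transcripts of Mmp12 share 122 bases with those of Sult2a8 at 95.9% identity.

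Mmp13, a collagenase that cuts fibrillar collagen, had a lower level than Mmp12 and a larger fold change. It had 94, 71 and 118 counts in control and 370, 439 and 415 counts with DB2313. The lowest DB2313 library was above the highest control library by more than the spread within either group. Its level was 5.88 ± 1.48 CPM without DB2313 and 23.1 ± 1.57 CPM with it (SD, n = 3 each), a log2 fold change of 1.97 ± 0.16 (SE). The gene (ENSMUSG00000050578, chr9:7272514-7283331, plus strand) overlaps no other gene of the table.

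Mmp27, a little-studied MMP whose rise chose the set, was near the lower limit of detection. It had 25, 14 and 8 counts in control and 39, 101 and 83 counts with DB2313. DB2313 replicate 1 was the lowest of the treated libraries and stood closest to control replicate 1, at 2.37 against 1.54 CPM. Mean levels were 0.972 ± 0.524 and 4.14 ± 1.53 CPM (SD, n = 3 each), and the log2 fold change was 2.08 ± 0.41 (SE). The gene (ENSMUSG00000070323, chr9:7571396-7581885, plus strand) begins 2910 bases after the end of Mmp8, which is transcribed in the same direction. The counts of Mmp27 came to 0.171% to 0.420% of those of Mmp8 in the control libraries and to 0.416% to 0.781% in the DB2313 libraries. Whether reads that run past the end of Mmp8 add to the counts of Mmp27 was not tested.

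The neighbours of these genes in the cluster, which are not members, were examined by the same fit. The cluster holds 10 MMP genes within 427 kb of chromosome 9 (GRCm38, 7272514 to 7699585). Mmp8, a collagenase stored in neutrophil granules, had 4667 to 5947 counts in control and 9381 to 12934 counts with DB2313. Its level rose from 324 ± 37.7 to 636 ± 61.4 CPM (SD, n = 3 each), a difference of 0.98 ± 0.09 on the log2 scale (SE, edgeR adjusted p 7.7e-06). The 4 genes of the cluster that were tested, Mmp13, Mmp12, Mmp8 and Mmp27, were all called higher, where 4.66% of all tested genes were. The rise of Mmp27 chose the set and the cluster was taken as its location, so nothing is read from this count. Mmp10, a stromelysin, was under the filter, with 0, 0 and 1 counts in control and 1, 25 and 7 counts with DB2313, so that its signal came mostly from DB2313 replicate 2. Mmp20 and Mmp7 had 6 counts or fewer in every library, and Mmp3, Mmp1a and Mmp1b had 0 counts in all 6 libraries, where a count of 0 allows up to 3 counts per library.

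The genes within 500 kb on either side of the cluster were looked at after the values of the MMP genes had been seen. Of 20 such genes or genes inside the cluster that are no MMP, 8 were tested, 0 were called higher and 3 were called lower by edgeR's test. Those 3 were Tmem123 (log2 fold change -0.25 ± 0.07, SE, adjusted p 0.0272), Birc3 (-0.25 ± 0.07, adjusted p 0.0375) and Cep126 (-1.81 ± 0.40, adjusted p 0.00825), all on the distal side. Dcun1d5, the nearest tested gene on the proximal side, differed by 0.19 ± 0.09 on the log2 scale (SE, edgeR adjusted p 0.199). At an unadjusted p under 0.05, 2 of the 8 were higher, and DESeq2 and limma-voom also called 0 higher. Of all tested genes, 4.66% were called higher and 5.94% lower. The 0 of 8 higher does not set these genes apart from the rest. The 3 of 8 lower is above the share over all tested genes, and whether the flanks differ from the rest was not tested.

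**Figure D2:**
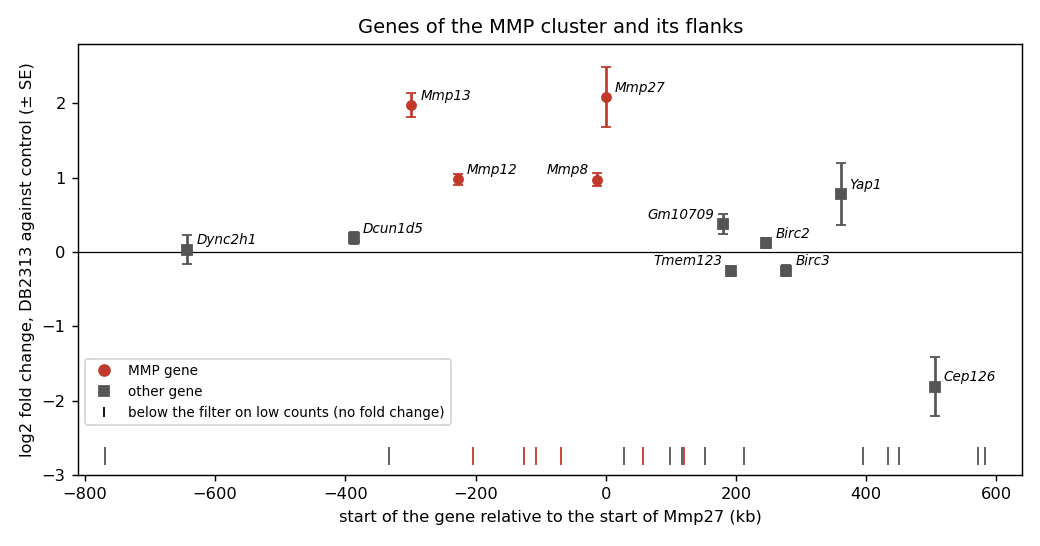
Log2 fold change (DB2313 against control, ± SE, n = 3 libraries each) of the tested genes in and around the MMP cluster, against the distance of their start from that of Mmp27 in kb; ticks mark genes under the filter on low counts. The 4 tested MMP genes (red circles) lie between 0.98 and 2.08, and the 8 other tested genes (grey squares) between -1.81 and 0.78.

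The membrane-anchored members were lower with DB2313. Mmp14, a transmembrane collagenase that also activates the proenzyme of Mmp2 at the cell surface, had 1739, 1668 and 1802 counts in control and 1124, 1136 and 983 counts with DB2313. The groups were far apart, with no treated library near a control library. Its level was 105 to 113 CPM in the control libraries and 57.0 to 68.25 CPM in the DB2313 libraries, and the log2 fold change was -0.82 ± 0.08 (SE). The gene (ENSMUSG00000000957) lies at chr14:54431612-54445364 on the plus strand. Its transcripts share stretches of 130 to 133 bases with those of Ocrl, Olfr1238 and Slc37a1, at 95.4% to 95.5% identity.

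Mmp25, a membrane-bound MMP with a lipid anchor that is known from neutrophils, had 5031, 5693 and 5288 counts in control and 3068, 3673 and 3123 counts with DB2313. The DB2313 libraries were close to each other once scaled, at 184 to 188 CPM, and the control libraries were at 309 to 357 CPM. The log2 fold change was -0.84 ± 0.07 (SE). The gene (ENSMUSG00000023903, chr17:23628311-23645277, minus strand) overlaps short pseudogenes on the other strand with at most 16 counts in a library.

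Mmp19, a secreted MMP of basement membrane substrates, had 331, 337 and 311 counts in control and 193, 232 and 266 counts with DB2313. The groups did not overlap, and DB2313 replicate 3 was the closest to control at 15.98 CPM against 19.5 CPM in control replicate 3. Its level was 20.3 ± 0.817 CPM without DB2313 and 13.1 ± 2.49 CPM with it (SD, n = 3 each), a log2 fold change of -0.64 ± 0.14 (SE). Without DB2313 replicate 2 the log2 fold change was -0.55 and the gene was no longer called. Transcripts of Mmp19 (ENSMUSG00000025355, chr10:128790910-128800824, plus strand) share a stretch of 789 bases with those of Tmem198b on the opposite strand. Tmem198b had 278 to 459 counts and a log2 fold change of 0.18 ± 0.12 (SE, edgeR adjusted p 0.376), and reads of this stretch cannot be assigned without strand.

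Mmp2, a gelatinase that is activated by Mmp14 together with Timp2, was not called. It had 658, 652 and 710 counts in control and 593, 748 and 720 counts with DB2313, at 42.0 ± 2.24 and 38.9 ± 3.83 CPM (SD, n = 3 each). The libraries of the groups were interleaved. The log2 fold change was -0.11 ± 0.10 (SE). The gene (ENSMUSG00000031740) lies at chr8:92827291-92853420 on the plus strand.

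**Figure D3:**
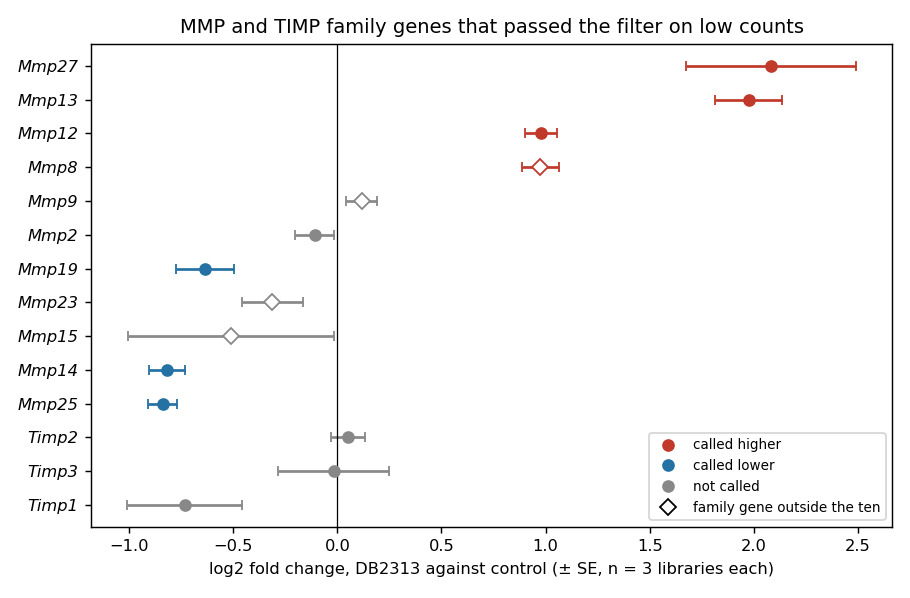
Log2 fold change (DB2313 against control, ± SE, n = 3 libraries each) of the 10 members (filled circles) and of the 4 other family genes that passed the filter on low counts (open diamonds), coloured by call. Enzymes of the chromosome 9 cluster lie at 0.98 or above, Mmp19, Mmp14 and Mmp25 lie between -0.84 and -0.64, and the 3 TIMP genes were not called.

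The 3 inhibitors were not called by edgeR. Timp2, a soluble inhibitor that also binds the proenzyme of Mmp2, was the main TIMP and had 993, 961 and 886 counts in control and 945, 1269 and 1032 counts with DB2313. Its level was 59.0 ± 2.97 and 61.0 ± 3.25 CPM (SD, n = 3 each), and the log2 fold change was 0.05 ± 0.08 (SE). Control and DB2313 libraries overlapped. The gene (ENSMUSG00000017466) lies at chr11:118301069-118355740 on the minus strand.

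Timp1, an inhibitor of most secreted MMPs, had 57, 50 and 72 counts in control and 36, 40 and 42 counts with DB2313. Each DB2313 library, at 2.01 to 2.52 CPM, was below each control library, at 3.14 to 4.52 CPM. The log2 fold change of -0.73 ± 0.27 (SE) did not meet the threshold for a call. The gene (ENSMUSG00000001131, chrX:20870166-20874735, plus strand) lies inside Syn1 on the opposite strand, which had 176 to 230 counts.

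Timp3, an inhibitor that binds to the matrix, had 49, 54 and 47 counts in control and 49, 75 and 41 counts with DB2313. DB2313 replicates 2 and 3 were the highest and the lowest of all 6 libraries in CPM. The log2 fold change was -0.02 ± 0.27 (SE), and its sign turned under several settings. Transcripts of Timp3 (ENSMUSG00000020044, chr10:86300372-86349506, plus strand) share 1733 bases with those of Syn3 on the opposite strand, which had 97 to 155 counts, so part of these reads is of uncertain origin.

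To compare genes with each other, CPM were divided by the deposited gene length in kilobases (RPKM). In control, the order of levels was Mmp12 (85.6 ± 7.14 RPKM, SD, n = 3), Mmp25 (62.7 ± 4.51), Mmp14 (18.2 ± 0.728), Timp2 (15.1 ± 0.762), Mmp2 (12.4 ± 0.664), Mmp19 (5.75 ± 0.231), Timp1 (4.19 ± 0.805), Mmp13 (2.20 ± 0.552), Mmp27 (0.440 ± 0.237) and Timp3 (0.383 ± 0.0291). The library ranges of neighbours in this order were apart except for Mmp27 and Timp3. With DB2313, Mmp12 (168 ± 9.62 RPKM) and Mmp25 (35.1 ± 0.328 RPKM) kept the first ranks, while Mmp13 (8.66 ± 0.588 RPKM) stood above Mmp19 (3.71 ± 0.704 RPKM). The ranges of Mmp2 (10.7 to 12.8 RPKM) and Mmp14 (9.56 to 11.5 RPKM) then overlapped, as did those of Timp1 (2.26 to 2.84 RPKM) and Mmp27 (1.07 to 2.29 RPKM).

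Summed over all MMP genes of the table, members or not, the level was 381 to 401 RPKM in the control libraries and 538 to 610 RPKM in the DB2313 libraries. The sum over the TIMP genes was 19.4 to 19.99 RPKM in control and 17.6 to 19.1 RPKM with DB2313. The ratio of these sums was 19.3 to 20.1 in control and 29.9 to 32.0 with DB2313. On balance, the rise of the MMP sum lay in Mmp12 and in Mmp8, which is no member. Mmp8 was at 133 RPKM in control and 262 RPKM with DB2313, and the 21 MMP genes other than these summed to 158 to 175 RPKM in control and to a lower 139 to 146 RPKM with DB2313. Mmp13, Mmp12, Mmp10, Mmp8 and Mmp27 of the cluster together made up 54.9% to 61.3% of the MMP sum in control and 75.9% to 78.05% with DB2313. These sums hold the values that chose the set, so no test was made, and they count RNA, not enzyme or inhibitor protein.

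**Figure D4:**
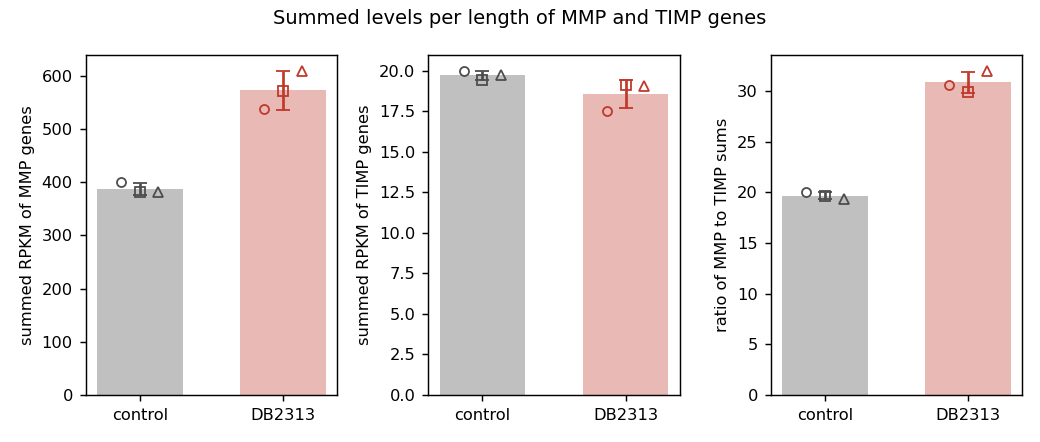
Summed RPKM of the MMP genes, summed RPKM of the TIMP genes and the ratio of both, with bars for the mean, error bars for the SD and symbols for the 3 libraries of each group. The MMP sum is 388 ± 11.6 in control and 573 ± 36.1 with DB2313, the TIMP sum 19.7 ± 0.286 and 18.6 ± 0.884, and the ratio 19.7 ± 0.379 and 30.9 ± 1.06.

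Of the 17 other family genes in the table, 4 passed the filter on low counts, and Mmp8 was the only one called with edgeR. Mmp9, a gelatinase of neutrophils and macrophages, was at 209 ± 15.2 CPM without DB2313 and 227 ± 7.78 CPM with it (SD, n = 3 each), and the difference was 0.12 ± 0.07 on the log2 scale (SE, edgeR adjusted p 0.371). Mmp23 had a log2 fold change of -0.31 ± 0.15 (SE, edgeR adjusted p 0.211), and the membrane-anchored Mmp15, with 7 to 22 counts per library, one of -0.51 ± 0.49 (SE, edgeR adjusted p 0.595). Mmp1a, Mmp1b, Mmp3 and Mmp16 had 0 counts in all libraries.

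Of 22 genes that activate, bind or clear MMPs, 17 were tested, 1 was called higher and 1 lower, a share near that of all tested genes (4.66% higher and 5.94% lower). Itgb3, an integrin subunit, rose by 0.34 ± 0.08 (log2 fold change ± SE, edgeR adjusted p 0.00948), and lost its call without control replicate 3 (0.30, edgeR adjusted p 0.0709). Thbs1, a matrix glycoprotein that binds MMPs, fell by 0.45 ± 0.09 on the log2 scale (SE, edgeR adjusted p 0.00337). Furin, the protease that activates membrane-anchored MMPs, had a log2 fold change of -0.14 ± 0.07 (SE, edgeR adjusted p 0.283), and Bsg, a membrane protein that induces MMPs, one of 0.06 ± 0.07 (SE, edgeR adjusted p 0.689). These last pair were named for their roles after the values were seen.

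The related ADAM and ADAMTS proteases were called in one direction. Of 26 genes, 17 were tested, 0 were called higher and 5 lower by edgeR, where 1 was higher at an unadjusted p under 0.05 and DESeq2 and limma-voom called 0 higher. Adam8, a membrane protease of leukocytes, fell from 602 ± 13.3 to 430 ± 15.9 CPM (SD, n = 3 each), with a log2 fold change of -0.49 ± 0.06 (SE, edgeR adjusted p 1.9e-04). Adam19 (-0.57 ± 0.09), Adamts7 (-0.87 ± 0.17) and Adamts10 (-0.61 ± 0.12, log2 fold change ± SE) fell as well, with edgeR adjusted p of 9.7e-04, 0.00446 and 0.00408. Adam23, which has no protease activity, was called at -0.37 ± 0.11 (SE, edgeR adjusted p 0.0393) and lost its call when any single library other than DB2313 replicate 3 was left out, with adjusted p of 0.055 to 0.237, with library totals (adjusted p 0.0712) and with the replicate block and gene-length offset together (adjusted p 0.0555). The median log2 fold change of the 17 genes was -0.37. Over all tested genes 4.66% were called higher and 5.94% lower.

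Of 29 genes for matrix proteins that MMPs can cut, 15 were tested, 2 were called higher and 3 lower. Among all tested genes, 4.66% were called higher and 5.94% lower. Spp1, which encodes the matrix protein and cytokine osteopontin, fell from 106 ± 9.87 to 56.4 ± 11.3 CPM (SD, n = 3 each), with a log2 fold change of -0.91 ± 0.12 (SE, edgeR adjusted p 1.4e-04). Lama5, a laminin chain (-0.48 ± 0.10), and Nid1, a basement membrane protein (-0.63 ± 0.17), were lower, with edgeR adjusted p of 0.00698 and 0.0224. Tgfbi, an adhesion protein (0.51 ± 0.08), and Col4a2, a chain of type IV collagen (0.97 ± 0.22), were higher, with edgeR adjusted p of 6.7e-04 and 0.0105. Col4a1, another chain of type IV collagen, was under the filter. It had 18, 12 and 3 counts in control and 2, 1 and 2 counts with DB2313. The call of Nid1 was lost without any 1 of the control libraries (adjusted p 0.0757 to 0.0885), and that of Col4a2 without control replicate 1, control replicate 2 or DB2313 replicate 2 (adjusted p 0.059 to 0.0742).

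Markers of the cell types that express these enzymes were measured beside them. For comparison with the counts below, 4.66% of all tested genes were called higher and 5.94% lower. Of 10 neutrophil markers, which bear on Mmp8, Mmp9 and Mmp25, 3 were called higher (Ly6g, Elane and Retnlg) and 0 lower by edgeR (0 lower also at an unadjusted p under 0.05 and with DESeq2, which called 5 higher), and the summed level was 4421 to 4973 CPM in control and 4487 to 5895 CPM with DB2313. Of 10 macrophage markers, which bear on Mmp12 and Mmp14, 1 was called higher (Fcgr1, by neither DESeq2 nor limma-voom) and 5 lower (Mrc1, C1qa, C1qb, C1qc and Csf1r). Their summed level was 9776 to 11164 CPM in control and 8827 to 9697 CPM with DB2313. Lyz2, which was not called, made up most of these sums, at 8285 to 9555 and 7561 to 8253 CPM. Of 9 mast cell and basophil markers 2 were called higher (Fcer1a and Hdc). Of the 10 dendritic cell markers 2 were called lower (Itgax and Irf4), as were 2 of the 10 mature dendritic cell markers (Cacnb3 and Relb). The part of cell composition in the changes of MMP genes was not tested. Among 10 fibroblast markers, which bear on Mmp2, Mmp13 and Timp3, Col3a1, Dcn and Lum had 0 counts in all 6 libraries, 3 markers were tested and 0 were called by edgeR or DESeq2 (0 at an unadjusted p under 0.05), with Thy1 making up most of their sum of 72.6 to 101 CPM.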

How the data were processed

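RNA-seq counts of 6 libraries were used. The table deposited by the authors holds whole-number read counts, not normalised or pooled, in 1 column per library, and the gene length in base pairs. The submitters' processing notes name CASAVA 1.8, HISAT2 2.0.5 and featureCounts 1.5.0-p3, whereas the methods of the study name LifeScope. The build, the strandedness and the treatment of reads with several matches are not given in the sources used here. Of 54409 gene IDs shared with GENCODE M21 (GRCm38), 98.33% had the same coordinates, as had all 10 members.

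Columns were matched to samples by the treatment in the labels and by number. The column names (BMDC for control, Spi1 for DB2313) differ from the labels. The members and gene lists were chosen with earlier results of these data known. The genes named were every tested gene of the family, those of the cluster and, from the lists of activators, ADAM proteases and matrix substrates, the called genes, up to 5 a list by adjusted p. All called markers were named, with some of those that had low counts or were well detected. Furin, Bsg and the flanking genes were named after their values were seen, as were genes that were not tested, such as Col4a1.

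The test was edgeR 4.0.16 (R 4.3.3), quasi-likelihood, with TMM scaling, filterByExpr, a model of group alone and p-values adjusted over 14174 genes (Benjamini-Hochberg). SEs were derived from its F statistic. Fits were tested on simulated data. Nothing says that replicates came from separate cultures or animals, so p-values measure the spread between these libraries. Intervals from counts were not used. Alternatives were DESeq2 1.42.0, limma-voom (limma 3.58.1), other scalings and filters (no filter, or a mean of at least 10 counts), a gene-length offset (lowess, span 0.3), the replicate number as a block, and omission of each library. Shared stretches were searched with blastn 2.17.0 (95% identity over at least 100 bases). The labels give no batch. Same-numbered libraries did not deviate together (correlations of 0.00351, -0.0238 and -0.121), so they were not paired.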

Additional observations from a re-analysis of the deposited data

How the results depend on the processing

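The log2 fold changes of Mmp12 (0.92 to 1.04), Mmp13 (1.82 to 2.18), Mmp27 (1.78 to 2.58), Mmp14 (-0.90 to -0.76) and Mmp25 (-0.89 to -0.78) kept their direction and their call in all 15 alternatives, as did Mmp8 (0.91 to 1.07). All alternatives refit the libraries in which the rise of Mmp27 chose the set. The calls that Mmp27 kept are therefore no independent support for its rise. Mmp19 (-0.80 to -0.55) kept its call in 14, and without DB2313 replicate 2 its edgeR adjusted p was 0.0553 (range over the alternatives 1.8e-04 to 0.0553). Mmp2, Timp1 and Timp2 kept their sign and were called in none. The sign of Timp3 turned with library totals (0.0058), the gene-length offset (0.036), the replicate block with that offset (0.016), and ranged from -0.20 to 0.12 over the fits that left out 1 library, being positive without control replicate 2 (0.053), DB2313 replicate 1 (0.0089) and DB2313 replicate 3 (0.12). The cause was not tested.

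In every alternative 3 members were called higher. The number called lower was 3, and 2 to 3 with 1 library left out. Of all tested genes, 1503 were called, and 739 to 2408 with 1 library left out, the fewest without DB2313 replicate 2 and the most without DB2313 replicate 3. Without control replicates 1, 2 and 3 there were 846, 796 and 854. With the replicate block 1131 were called, 3 members were called higher and 3 lower, and the labels do not say that numbers mark shared cultures. The other family genes called were 2 with no filter, where Mmp10 was added. The activators and receptors called were 4 with the gene-length offset and 1 to 4 with 1 library left out, and the matrix substrates 3 to 8 with 1 library left out. Mmp27 rests on 8 to 101 counts per library, so its fold is the least precise of the called members.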
